A study of Homo sapiens with 2 samples.

Results

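The CCND1 locus lies on the long arm of chromosome 11 and was taken as chr11:68900000-69700000 of hg19, an interval of 800 kb. It holds CCND1 (ENSG00000110092.4_6, plus strand, chr11:69455924-69469242) and MYEOV (ENSG00000172927.3, plus strand, start at position 69061605), whose starts lie 394.3 kb apart. A loop is a pair of different anchors on 1 chromosome with a count of at least 1 read pair joining them. Its members were the loops with both anchors overlapping this interval, which were 350 in replicate 1, 385 in replicate 2 and 610 in either, out of 1973472 loops of up to 2 Mb in the whole series. H3K27ac HiChIP, which joins chromatin fragments that are close in the nucleus and keeps those carrying the acetyl mark of active promoters and enhancers, was performed in HCT116 cells, an established colorectal carcinoma cell line. The series holds 2 replicates of this untreated line and no other condition, and was collected to link enhancers of colorectal cancer with their target genes. The chromatin was cut with MboI, so the anchors begin and end at its recognition sites. Nothing in the labels says whether the replicates came from separate cultures, so the spread between them may be technical, and no expression data were used here to check the cell type.

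CCND1 encodes cyclin D1, the regulatory subunit that activates CDK4 and CDK6 in G1 phase, after which RB1 is phosphorylated and E2F factors are released. Its promoter receives growth factor, RAS-ERK and WNT signals in the intestinal epithelium, and it lies beside a long stretch of chromatin with few coding genes. MYEOV sits at the other end of this stretch and is often amplified together with CCND1 in carcinomas, while its own function is poorly understood. Contacts between an active promoter and distant acetylated regions are commonly read as candidate enhancer links, and CTCF, which binds DNA in a set orientation and halts cohesin, often marks the edges of such contact domains.

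The anchor at the CCND1 start, within 2.5 kb of it, was chr11:69450173-69458177, with a width of 8.004 kb. The MYEOV start lay in chr11:69059947-69074656, and a further anchor within 2.5 kb of it was chr11:69054157-69059154. MYEOV is annotated here up to position 69182494, across an assembly gap of 50 kb of unknown bases from 69089802 to 69139801, so distances that span the gap rest on its nominal size. The locus held 80 of the 250223 anchors, with a median width of 3.264 kb against 2.541 kb in all anchors.

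Sequences of these anchors are given for the parts that bear on the contacts described further on. The core of the CTCF motif was searched on both strands of the GRCh37 sequence, which is the build of the loop tables. A match was present in 22 of the 80 anchors of the locus against 10.4% of the 11095 anchors of chromosome 11, and the locus had 0.0792 matches per kb against 0.0403. A match was found in 0.361% of all 100-base windows of chromosome 11 anchors. Of the 26 matches in the locus, 11 read on the plus strand and 15 on the minus strand. The windows shown are from the 2 promoter anchors, from a distal partner of CCND1 and from the anchor over the CCND1 body, all printed on the plus strand with the core in capitals. For the CCND1 introns, first, middle and last give the order of the matches and not the number of the intron.
MYEOV promoter anchor, chr11:69059944-69060043: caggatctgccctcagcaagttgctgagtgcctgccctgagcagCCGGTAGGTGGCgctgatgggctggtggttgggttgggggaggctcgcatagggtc
anchor 259.1 kb upstream, chr11:69191465-69191564: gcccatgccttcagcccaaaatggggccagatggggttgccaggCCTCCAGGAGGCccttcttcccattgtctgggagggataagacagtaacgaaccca
CCND1 promoter anchor, chr11:69453602-69453701: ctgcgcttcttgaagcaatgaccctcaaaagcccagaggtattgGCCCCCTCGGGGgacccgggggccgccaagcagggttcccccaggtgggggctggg
CCND1 intron, first, chr11:69459116-69459215: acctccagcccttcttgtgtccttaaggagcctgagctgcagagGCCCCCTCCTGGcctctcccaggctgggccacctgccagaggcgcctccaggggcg
CCND1 intron, middle, chr11:69459296-69459395: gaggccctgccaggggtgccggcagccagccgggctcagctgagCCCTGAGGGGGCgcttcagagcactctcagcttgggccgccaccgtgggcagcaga
CCND1 intron, last, chr11:69463572-69463671: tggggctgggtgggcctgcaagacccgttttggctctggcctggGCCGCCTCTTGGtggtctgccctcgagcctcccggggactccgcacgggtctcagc
The matches in the MYEOV anchor and in the distal partner read on the plus strand. These 2 do not stand for the interval. Of the 11 matches in anchors from the MYEOV start up to the CCND1 promoter anchor, 4 read plus and 7 minus. A CCND1 partner 38.3 kb upstream, for example, held a minus match. The match in the CCND1 promoter anchor, 2.27 kb before the start, read on the minus strand, as did the first and last of the matches in CCND1 introns, while the middle intronic match read on the plus strand. A match is a description of these letters and not a measured binding site.

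The motif of AP-1, TGACTCA, the DNA element bound by FOS and JUN dimers, was found 8 times in the 14.71 kb MYEOV anchor, or 0.544 times per kb against 0.178 in chromosome 11 anchors. It was found 1 time in the CCND1 promoter anchor. Each of the next windows was chosen because it centres on 2 close matches, in capitals. Among consecutive 100-base windows of chromosome 11 anchors, which were not chosen by their matches, 0.0240% held 2 and 1.65% held at least 1.
MYEOV anchor, 3.48 kb past the start, chr11:69065033-69065132: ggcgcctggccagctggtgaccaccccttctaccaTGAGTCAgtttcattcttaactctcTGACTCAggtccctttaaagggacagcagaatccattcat
MYEOV anchor, 7.63 kb past the start, chr11:69069183-69069282: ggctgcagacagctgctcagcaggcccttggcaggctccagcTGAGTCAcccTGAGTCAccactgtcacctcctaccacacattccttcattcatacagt
The CCND1 promoter anchor differed in its letters and held 27 matches to the Sp1 motif GGGCGG, which is 3.37 per kb against 0.296 in chromosome 11 anchors. The E-box CACGTG was matched 3 times in the CCND1 anchor and 4 times in the MYEOV anchor. The TCF/LEF motif CTTTGATC, read at targets of WNT signalling, was matched 1 time in the CCND1 anchor and 0 times in the MYEOV anchor.

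The CCND1 promoter anchor was among the most connected promoters of these cells. With other anchors within 2 Mb it was counted 58 and 80 times in replicates 1 and 2, over 66 partners. The total was 7.37 times (95% exact Poisson interval 6.19 to 8.70) the 18.7 expected from distance alone, and the replicates gave 6.67 and 7.97 (mean 7.32 ± 0.918, SD, n = 2). Of the 16574 protein-coding genes with a promoter anchor, 99.69% had a lower ratio, while by count per kb of anchor, at 17.2 against a median of 7.86, 92.7% were lower. The MYEOV anchors had counts of 86 and 97, which is 5.58 times (4.80 to 6.45) the 32.8 expected (mean of the replicates 5.58 ± 0.100, SD, n = 2). By this ratio 98.9% of promoters were lower, but its anchors are 19.7 kb wide together, and by count per kb, at 9.29, 61.3% were lower. The anchor that holds the MYEOV start had a ratio of 9.12 by itself. These intervals cover counting error only, since read pairs without molecular identifiers are not independent molecules.

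Other genes of the G1 to S transition had fewer contacts at their promoters than CCND1, a comparison given as a description. By the ratio to distance alone, CDKN1B, the inhibitor p27, came next with counts of 52 and 66 and a ratio of 5.63, followed by CDK2, the partner of the E cyclins, with 19 and 41 and a ratio of 3.44. The ratio was 2.81 for CDK6 and 2.19 for CDK4, the kinases that cyclin D1 activates. The ratio takes no account of anchor width, and by count per kb CDK2 (15.4) exceeded CDKN1B (13.1) and CDK4 (10.4) exceeded CDK6 (5.67). The other D cyclins were lower, with counts of 12 and 15 and a ratio of 0.650 for CCND2, and counts of 23 and 5 and a ratio of 1.56 for CCND3. Replicate 1 supplied most of the CCND3 count, so its level is poorly fixed by these libraries. The inhibitors CDKN2B (2.78), CDKN2A (2.01), CDKN1A (1.57) and CDKN2C (1.13), with E2F1 (1.56) and RB1 (1.40), lay on both sides of the promoter median of 1.42. CCNE1 (0.608) and CCNE2 (0.800), the E cyclins that act after cyclin D1, lay below it.

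**Figure D1:**
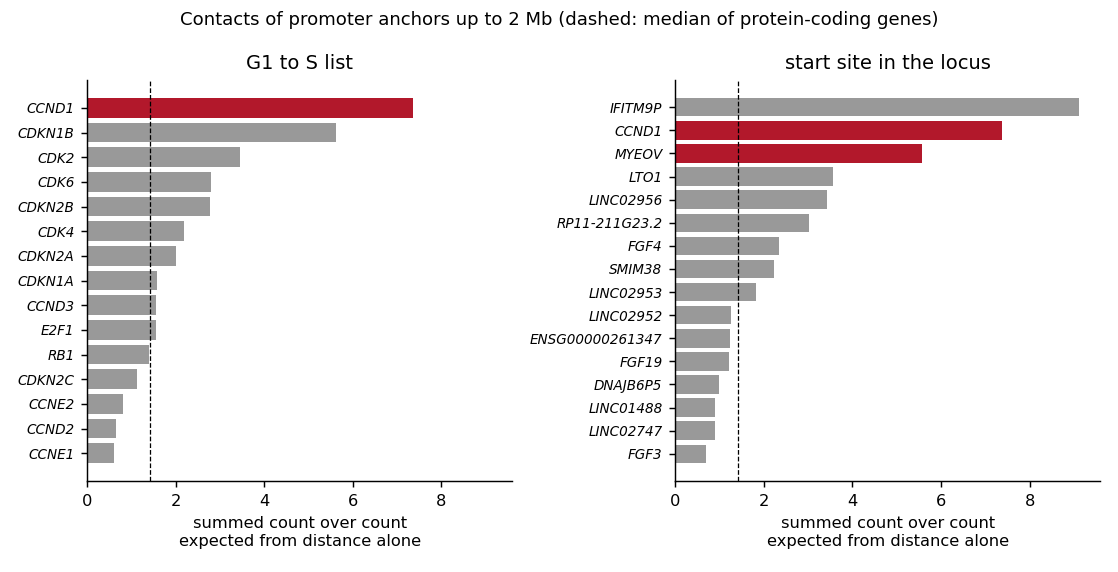
Summed count of promoter anchors with anchors up to 2 Mb away, over the count expected from distance alone (horizontal axis, ratio without unit), for genes of the G1 to S transition (left) and for genes that start in the locus (right); bars are single values of the summed replicates. CCND1 at 7.37 and MYEOV at 5.58 (red) exceed the median of 1.42 of protein-coding genes (dashed), and IFITM9P is a pseudogene that lies in the MYEOV anchor.

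The genes that start between and around the members shared this range. LTO1, which encodes an adaptor of ribosome biogenesis and starts 34.2 kb past CCND1, had counts of 27 and 34 and a ratio of 3.55. FGF19, the intestinal hormone that represses bile acid synthesis, had counts of 10 and 12 and a ratio of 1.22. FGF4 and FGF3, embryonic growth factors that are silent in most adult epithelia, had ratios of 2.34 and 0.686, and the FGF4 anchor is wide, with 4.16 counts per kb. In the upstream interval the noncoding RNA genes LINC02956 (3.42), RP11-211G23.2 (3.03) and LINC02953 (1.82) were above the promoter median. LINC02952 (1.26), ENSG00000261347 (1.25) and LINC02747 with LINC01488 (0.909), which share an anchor, were below it, as was the pseudogene DNAJB6P5 (0.995). SMIM38, centromeric of MYEOV, had a ratio of 2.22, and ENSG00000261070 had no anchor at its start.

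Loops of the locus were seen more often in both replicates than loops of the whole series. Of the 610 loops, 125 were found in both replicates (20.5%, exact binomial interval 17.4 to 23.9) against 10.2% in the series. A summed count of at least 5 was reached by 25 of the 610 (4.10%) against 1.47%, and among loops over 20 kb by 6 of 501 (1.20%, 0.441 to 2.59) against 0.344%. Of all 3160 pairs of anchors in the locus 19.3% had a count, against 3.86% of pairs within 2 Mb in the genome. The locus was short and rich in anchors, so its pairs are closer together than those of the genome, and its higher shares were not tested against that. Most loops were single read pairs, with a summed count of 1 in 410 of the 610. Replicate 1 supplied 46.2% of the counts of the locus and 46.4% of all counts within 2 Mb.

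The promoter of CCND1 had 47 loops in the locus, with counts of 43 in replicate 1 and 62 in replicate 2, and 15 of them appeared in both. Its nearest partners were the strongest. The anchor chr11:69445979-69447898, 7.24 kb before it, had counts of 4 and 5, and the anchor over the body of CCND1, chr11:69458713-69471487, had 5 and 4. These equal sums stood differently against expectation. The expected count of a single pair combined its distance with the depth of both anchors, meaning their total count without the pair itself. The upstream neighbour reached 3.03 times this value (1.39 to 5.76), and the gene body reached 0.651 times (0.298 to 1.24). The value of the upstream neighbour depends on leaving the pair out. Its total count within 2 Mb was 18, of which this pair supplied 9. The upstream class below 20 kb holds the same pair and keeps it in the depth. Its ratio was 1.12 (0.537 to 2.06), so the 3.03 is not read as an excess.

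Among partners over 20 kb in the locus, MYEOV had the highest summed count with the CCND1 promoter. Its main anchor, at 386.9 kb, had counts of 4 and 3 with CCND1, where distance and depth gave 1.83, a ratio of 3.83 (1.54 to 7.89). The other MYEOV anchor had counts of 0 and 2. Over both MYEOV anchors the count was 4 in replicate 1 and 5 in replicate 2 against 2.17 expected in all, a ratio of 4.15 (1.90 to 7.87, exact two-sided Poisson p = 0.000851). The replicates gave ratios of 4.38 (1.195 to 11.2) and 3.92 (1.27 to 9.15), with a mean of 4.15 ± 0.328 (SD, n = 2). These intervals are wide because so few read pairs were counted. Against distance alone the ratio over both replicates was 97.6. The whole class of upstream anchors at 200 to 400 kb had a ratio of 3.16 (2.21 to 4.37) with CCND1. That class keeps each pair in the depth, and on this setting the MYEOV ratio was 3.81 (1.74 to 7.23). The MYEOV pairs supplied 4 and 5 of the class counts of 16 and 20, so an excess at this range was not particular to MYEOV. The p-value compares reads of these libraries with a fitted value, and the pair of genes was named with earlier results of these data known.

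Further distant partners lay at TPCN2 and in the middle of the interval. At 549.7 kb, the anchor chr11:68899946-68909017, over the 3′ end of TPCN2, a lysosomal cation channel gene, had counts of 2 and 3 with CCND1 and a ratio of 8.21 (2.67 to 19.2). Just outside the locus, chr11:68872245-68878154 in TPCN2 had counts of 2 and 6 at 579 kb. Among anchors between the members that hold no coding start, chr11:69191333-69198748 (259.1 kb), whose CTCF window is shown above, had counts of 1 and 3 and a ratio of 3.67 (0.999 to 9.39). The anchor chr11:69211179-69218261 (239.5 kb) had counts of 4 and 0 and a ratio of 4.68 (1.28 to 12.0), so it had no count in replicate 2. For the named upstream partners at 20 to 50 kb the intervals included the expected count, with counts of 2 and 3 against 3.33 expected at 20.04 kb, and counts of 1 and 3 and a ratio of 1.16 (0.316 to 2.97) at 38.3 kb. The LTO1 anchor, 35.1 kb downstream, had counts of 2 and 2 and a ratio of 0.831 (0.227 to 2.13).

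**Figure D2:**
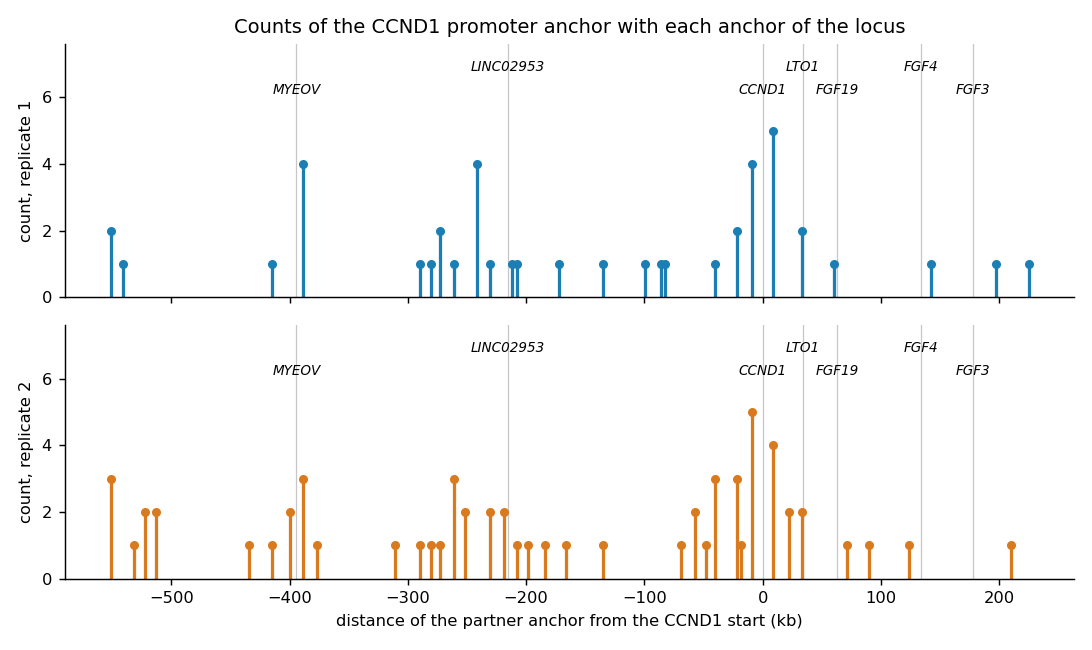
Count of read pairs (vertical axes) between the CCND1 promoter anchor and each other anchor of the locus, by the distance of that anchor from the CCND1 start in kb (negative towards MYEOV), for replicate 1 (top) and replicate 2 (bottom); each line is 1 anchor. The MYEOV anchor stands at 4 and 3, and past LTO1 no anchor exceeds 1.

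No pair of the locus passed the test across the genome once depth was taken into account. Each of 51094602 pairs was tested one-sided against a Poisson expectation, and after adjustment by Benjamini and Hochberg 0 of the 3160 pairs of the locus had an adjusted p under 0.05 on the summed counts, where 0.000121% of all pairs did. Only 62 pairs passed in the whole genome, so 0 among 3160 is near that share and is not read as a trait of the locus. At an unadjusted p under 0.05 there were 99 of the 3160. The share of all pairs at that threshold was not computed, so this number is not read as an excess. Against distance alone, 12 pairs of the locus passed, where 0.0153% of all pairs did. MYEOV with CCND1 then had an adjusted p of 4.50e-09, the TPCN2 end with CCND1 1.08e-05, and MYEOV with LTO1 3.79e-05. Of these 12, 4 had CCND1 and 6 had the main MYEOV anchor at an end, with the pair of both counted in each.

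The contacts of the CCND1 promoter were lopsided. Within 200 kb it had counts of 12 and 20 with upstream anchors, against 33.6 expected in all, and counts of 10 and 11 with downstream anchors, against 47.9. The upstream ratio was 0.951 and the downstream ratio 0.438, so the upstream side exceeded the downstream side 2.17 times relative to expectation (1.21 to 3.96, exact two-sided binomial p = 0.0074). Replicate 1 alone gave 1.70 (exact binomial p = 0.279) and replicate 2 gave 2.61 (exact binomial p = 0.00992), so replicate 1 had the same direction without passing the threshold. The depth of the partners decides this call, as distance alone gave 1.18 (0.661 to 2.16, exact binomial p = 0.582).

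Upstream, the classes below 200 kb lay near or below expectation and those beyond it lay above. The ratio was 1.12 (0.537 to 2.06) below 20 kb, 1.04 (0.497 to 1.91) at 20 to 50 kb, 0.639 (0.234 to 1.39) at 50 to 100 kb and 1.06 (0.388 to 2.30) at 100 to 200 kb. From 200 to 400 kb upstream, the stretch that holds MYEOV, counts of 16 and 20 met 11.4 expected, a ratio of 3.16 (2.21 to 4.37). From 400 to 800 kb the counts were 4 and 10 and the ratio 3.09 (1.69 to 5.18). All pairs of the locus, these included, were also above expectation at such distances. Their ratio was 1.27 (1.09 to 1.48) at 200 to 400 kb and 1.40 (1.12 to 1.73) at 400 to 800 kb. Downstream every class lay below 1, from 0.381 at 50 to 100 kb to 0.528 below 20 kb, with an interval wholly below 1 at 20 to 50 kb (0.390, 0.143 to 0.848), and from 200 kb on only 2 read pairs were counted. The expected total of each anchor equals its observed total within 2 Mb, so a shortage in some classes goes with an excess in others, and the classes are not independent. Beyond the locus, the promoter had a count of 31 with centromeric anchors within 2 Mb and 2 with telomeric ones. These 2 counts were not set against expectation, and the locus ends nearer to CCND1 on the telomeric side, so they are not compared.

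**Figure D3:**
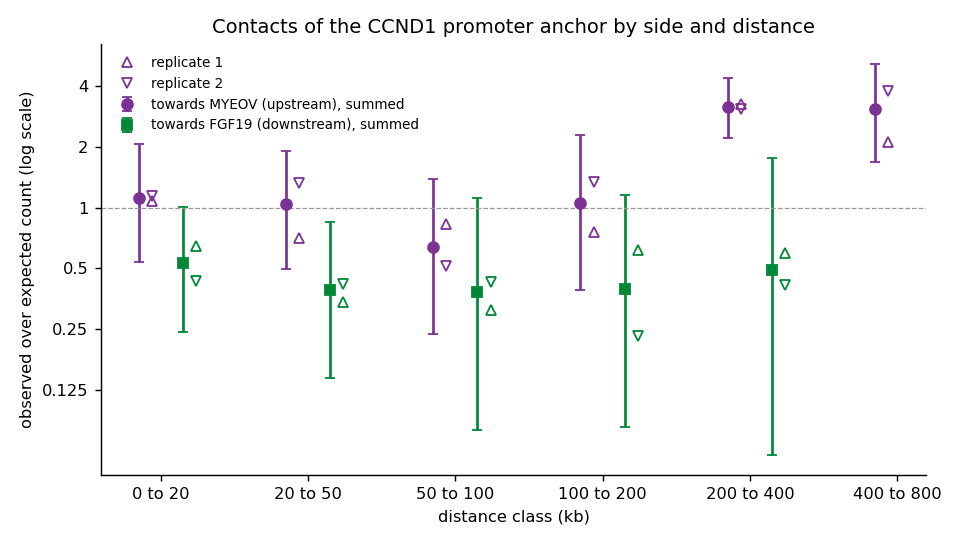
Observed over expected count of the CCND1 promoter anchor (log scale, expectation from distance and depth) by distance class in kb, upstream (purple circles) and downstream (green squares), with exact 95% Poisson intervals of the summed counts and each replicate as an open triangle. Upstream values reach 3.16 and 3.09 in the farthest classes, and all downstream values lie below 1.

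MYEOV also had contacts across the interval, which were less even between replicates. Near it, the strongest loops were with its other anchor (4 and 4) and with chr11:69077036-69080667 in its own gene model (4 and 3). The anchor chr11:69035986-69045965, 26.3 kb centromeric, had counts of 6 and 1 and a ratio of 0.734 (0.295 to 1.51). Far from it, the MYEOV anchor had counts of 1 and 4 with LTO1 at 422 kb, a ratio of 6.58 (2.14 to 15.3), and counts of 1 and 3 with the CCND1 body at 397.8 kb, a ratio of 5.79 (1.58 to 14.8). With the TPCN2 end, 162.8 kb centromeric, the counts were 2 and 3 and the ratio was 2.22 (0.722 to 5.19). From 200 to 400 kb the MYEOV anchors had counts of 9 and 22 against 14.7 expected, a ratio of 2.11 (1.43 to 2.99), which was 1.33 (0.608 to 2.52) in replicate 1 and 2.77 in replicate 2. From 400 to 800 kb the counts were 7 and 11 and the ratio 1.62 (0.958 to 2.56), an interval that includes 1. Each pair among the main MYEOV anchor, the CCND1 promoter anchor and the TPCN2 end had counts in both replicates. So did all 25 loops of the locus with a summed count of at least 5, so this is not particular to these pairs.

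The interval between the MYEOV and CCND1 starts held 35 anchors and 182 loops with both ends in it. Its counts were 155 and 168 against 297.3 expected from distance and depth, a ratio of 1.09 (0.971 to 1.21, exact two-sided Poisson p = 0.147), which did not pass the threshold, and 1.89 times the value from distance alone. Its pairs at 200 to 400 kb had a ratio of 1.61 (1.10 to 2.27), with 1.19 in replicate 1 and 1.96 in replicate 2. The largest loop of the interval was short, between chr11:69211179-69218261 and chr11:69221479-69228508 at 10.3 kb, with counts of 2 and 8. Both of these anchors also had counts with CCND1, 4 and 0 for the former and 1 and 2 for the latter, as did most anchors of the interval. Over 20 kb, the MYEOV anchor with chr11:69163665-69169002 (99.03 kb) had counts of 3 and 1 and a ratio of 1.28 (0.349 to 3.28). The MYEOV anchor with chr11:69394384-69402949 (331.4 kb) had 1 and 3 and a ratio of 3.76 (1.03 to 9.63). The pair chr11:69163665-69169002 with chr11:69191333-69198748 (28.7 kb) had 2 and 2 and a ratio of 1.16 (0.316 to 2.97). MYEOV with the anchor of RP11-211G23.2 (115.4 kb) had 1 and 2 with a ratio of 1.48 (0.304 to 4.31), and with chr11:69211179-69218261 (147.4 kb) 2 and 1 with a ratio of 1.79 (0.370 to 5.24).

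**Figure D4:**
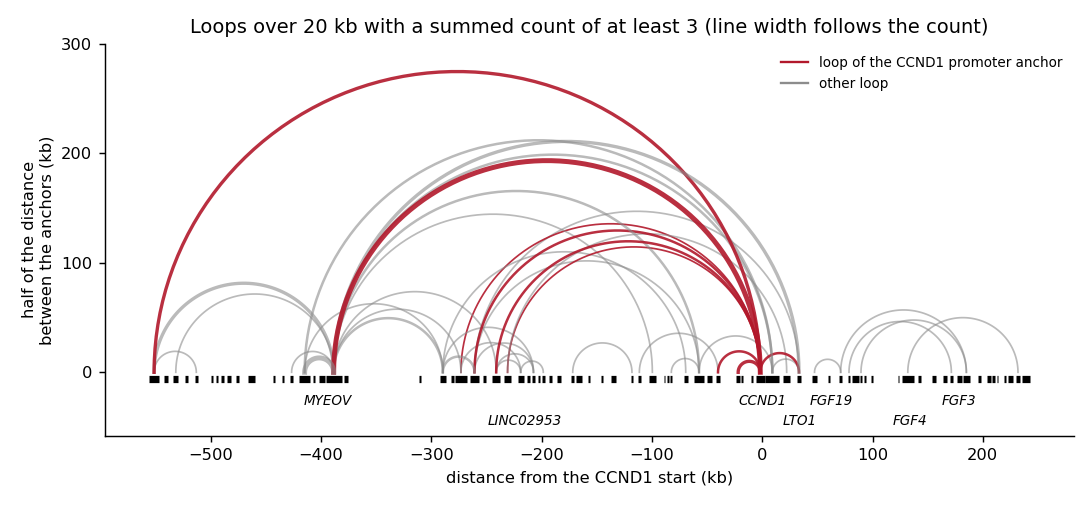
The 44 loops of the locus over 20 kb with a summed count of at least 3, drawn as arcs between anchors (black blocks) by distance from the CCND1 start in kb, with height equal to the radius of the arc and line width following the count. Of these, 9 end at the CCND1 promoter anchor (red), 23 lie wholly upstream of it, 6 wholly downstream and 6 pass over it.

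Contacts between the interval and the region past CCND1 were fewer than expected. Pairs with 1 anchor in the upstream interval and the other past the CCND1 promoter anchor had counts of 33 and 43 against 127.9 expected, a ratio of 0.594 (0.468 to 0.744, exact two-sided Poisson p = 9.73e-07). The replicates gave 0.561 and 0.623 (mean 0.592 ± 0.0436, SD, n = 2). At 100 to 200 kb the shortage was greatest, with counts of 3 and 4 and a ratio of 0.260 (0.104 to 0.535), and at 400 to 800 kb the ratio was 0.897 (0.562 to 1.36). Against distance alone the direction turned, to 1.09 (0.861 to 1.37, exact Poisson p = 0.470), so the shortage holds relative to the high depth of these anchors. Some loops did pass over the promoter: MYEOV with LTO1, described above, and chr11:69035986-69045965 with the CCND1 body at 424.1 kb, with counts of 3 and 1.

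The number of contacts passing over an anchor fell at the CCND1 promoter and rose again past LTO1. For each anchor, the contacts of up to 400 kb that joined an anchor before it to an anchor after it were counted. Contacts that end at the anchor itself are left out. The upstream contacts of the CCND1 promoter anchor therefore pass over anchors before it and not over the promoter anchor. Those contacts had counts of 12 and 20 within 200 kb, and of 16 and 20 from 200 to 400 kb. The number passing over was highest at chr11:69242882-69245330, in LINC02953, with counts of 95 and 113. It was 51 and 65 at the last anchor before the CCND1 promoter and 28 and 31 at the promoter anchor itself. It was lowest at the LTO1 start, with 23 and 31, and rose again to 71 and 78 at the FGF3 start. Both replicates fell between the same neighbouring anchors.

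Relative to distance and depth, the ratio was 0.533 (lower in 1.64% of 236731 anchors of the genome) at the CCND1 promoter anchor and 0.407 (lower in 0.240%) at LTO1. It was under 0.6 at 7 anchors in a row, from the CCND1 promoter to 71.2 kb past it, a stretch that holds LTO1 and FGF19. The highest ratio of the locus was 1.63, in the upstream interval, and the genome median was 0.993 with a 10th to 90th percentile range of 0.711 to 1.29. On distance alone, the same profile was 0.926 at the CCND1 promoter anchor and 0.858 at LTO1 against a genome median of 0.904, and 3.50 in LINC02953. The step within the locus was therefore seen on either scale, whereas a low rank in the genome was seen with depth taken into account. Counts fell from 51 and 65 at the last anchor before the promoter to 28 and 31 at the promoter anchor. This fall was no larger than the promoter anchor's own upstream contacts that pass over that last anchor. It is therefore not read as a loss of other contacts, and the ratios without those contacts were not computed. The 4 CTCF core matches of the CCND1 promoter anchor and the CCND1 introns shown above lie in this stretch, 3 on the minus and 1 on the plus strand, and their part in the profile was not tested.

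**Figure D5:**
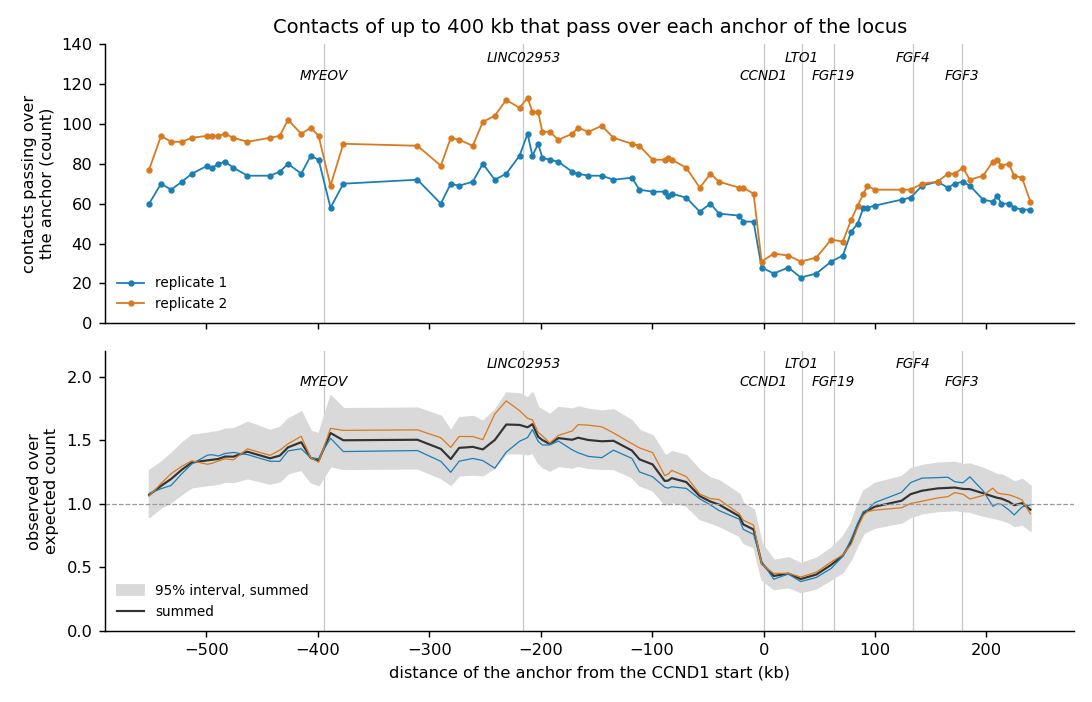
Contacts of up to 400 kb that pass over each anchor, by distance of the anchor from the CCND1 start in kb: counts per replicate (top) and the ratio to the count expected from distance and depth (bottom), with the exact 95% Poisson interval of the summed counts shaded. Counts fall from 51 and 65 before the CCND1 promoter to 23 and 31 at LTO1, and the ratio there is 0.407.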

How the data were processed

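H3K27ac HiChIP was analysed in 2 replicates of HCT116 cells. The deposited tables give, per the study's methods and the labels, raw counts of read pairs per pair of anchors on 1 chromosome: the authors mapped reads to hg19 with HiC-Pro and called loops with hichipper, whose versions and anchor settings are not given in the sources used here. The submitters' processing notes name HiC-Pro and hg19. Counts summed to 1885481 and 2131466, and pairs of an anchor with itself were left out. The count expected for a pair was the product of 2 anchor depths and a function of distance (60 log classes, up to 2 Mb), balanced over 40 rounds on the whole tables, per replicate and summed. For single pairs the pair's own count was left out of the depth (offset 0.5). Single pairs were tested one-sided against a Poisson mean, with p-values adjusted by Benjamini and Hochberg over every pair in the genome, and sums by exact Poisson or binomial tests. Intervals are at the 95% level and cover counting error only. For a count of 0 the one-sided 95% limit is 3 counts, whereas the printed intervals are two-sided. The steps were tested on simulated data with known changes. The simulated counts were independent Poisson draws from the fitted expectation, so this test does not cover reads that are not independent. Gene starts are the canonical ones of GENCODE on GRCh37, and sequences were read from GRCh37, the build of the tables, at positions counted from 1; 1 window is not reported here. The named genes were CCND1 and MYEOV, genes starting in the region, the top partners of the CCND1 anchor and top loops of the upstream interval by summed count, and 15 genes of the G1 to S transition. The members, lists and tests were chosen with earlier results of these data known. Alternatives covered the promoter width, distance measure, distance classes, expectation, range, threshold and each replicate left out. The scripts ran under Python 3.11.15 with SciPy 1.17.1, pandas 2.3.3, Matplotlib 3.10.9, Numba 0.67.0 and NumPy 2.4.6.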

Additional observations from a re-analysis of the deposited data

How the results depend on the processing

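The mean number of loops per replicate was 367.5, and it became 85 with a minimum count of 2, 4.5 with a minimum of 5 and 610 with both replicates summed, while leaving out each replicate gave 350 to 385. The CCND1 promoter ratio was 5.46 with a promoter of 5 kb on either side and 6.67 to 7.97 with each replicate left out. The MYEOV ratio was 9.12 with 1 kb on either side, 5.11 with distance between inner edges, 6.08 up to 1 Mb, and 5.51 to 5.65 with each replicate left out. With the expectation from distance alone, the upstream to downstream ratio was 1.18 and no longer passed, contacts across the CCND1 promoter turned to 1.09, contacts inside the upstream interval passed at 1.89, and 12 pairs passed in place of 0. The depth of the anchors is what this setting removes. Leaving out each replicate gave 1.70 to 2.61 for the upstream to downstream ratio, where replicate 1 alone did not pass, 0.561 to 0.623 across the promoter, 1.08 to 1.09 inside the interval and 3.92 to 4.38 for MYEOV with CCND1. Without pairs on both sides of the assembly gap, an alternative chosen after seeing the data, the ratio across the promoter was 0.472. No paired analysis was possible because the series holds only 1 group. Depth limits single pairs: the highest summed count of the locus was 10.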
